A study of Homo sapiens with 4 samples.

Results

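The genes described here are 7 mucin genes of lung epithelium, 5 that encode transmembrane mucins (MUC1, MUC4, MUC13, MUC16 and MUC20) and 2 that encode gel-forming mucins (MUC5AC and MUC5B). They were chosen by name as transmembrane and gel-forming mucins, by a rule that uses no measured value but was written with earlier results of these data known, and all 7 were found by symbol among the 58812 genes of the count files. RNA was sequenced from A549, an established human lung carcinoma epithelial line described as wild type, in 4 libraries. Of these, 2 came from cells given SAMD9-Myc-DDK, a tagged form of an interferon-inducible antiviral protein (genotype label SAMD9 overexpression), and 2 from cells given the empty vector pCMV6-Entry (genotype label control), in each case 1 µg of plasmid for 24 hr. No label states that replicates were grown separately, and the p-values therefore cover only the spread between these libraries, which may be technical.

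Mucins are large glycoproteins whose serine- and threonine-rich repeats carry dense O-linked sugars. Gel-forming mucins are packed into granules by secretory cells, released, and linked into the mucus layer that traps particles and microbes in the airway. Transmembrane mucins stay on the apical surface, where they form a barrier close to the membrane, can be shed, and can signal through short cytoplasmic tails. MUC5AC and MUC5B are the main polymers of airway mucus, and MUC1, MUC4 and MUC16 are the membrane mucins best known from airway surfaces.

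With SAMD9, the RNA of 3 transmembrane mucins rose: MUC16 2.77-fold, MUC1 2.52-fold and MUC13 1.90-fold. The other 4 genes did not pass the test, and no member was called lower. The count of 3 called of 7 stands beside 27.5% of all 19814 genes tested, of which 15.3% were higher and 12.2% lower (called at an edgeR adjusted p below 0.05, with Benjamini-Hochberg adjustment across every tested gene). The median log2 fold change of the 7 genes was -0.12, against -0.01 over all genes tested. In bulk RNA, a change in how many cells express a gene and a change in RNA per cell cannot be told apart.

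Levels are given as CPM (counts scaled to library size with TMM factors), and the order of levels between genes is given as CPM per kilobase of the gene length in the files. Library totals ranged from 29301854 to 39670083 counts. SAMD9 itself had 220123 and 184350 counts in the SAMD9 libraries, against 444 and 400 counts with empty vector. All 10 type I interferon response genes in a control list rose, with a median log2 fold change of 6.66. Among lung epithelium markers, KRT8 averaged 4593 ± 122 CPM with SAMD9 and 3474 ± 241 CPM with empty vector, and the adhesion gene EPCAM averaged 5.57 ± 0.0170 and 6.38 ± 0.740 CPM (SD, n = 2 each). The airway and alveolar regulator NKX2-1 had 2 and 2 counts with SAMD9, against 6 and 4 with empty vector, so that marker of lung epithelial identity was near the limit of detection. The summed level of 7 fibroblast markers was 6.38 and 6.43 CPM in the SAMD9 libraries, against 1.79 and 2.84 CPM with empty vector, with DCN at 0 in all 4. Most of that sum was COL1A1 alone, with 5.20 and 5.59 CPM with SAMD9, against 1.44 and 2.09 CPM with empty vector. The summed level of 7 leukocyte markers was 7.0 and 6.92 CPM with SAMD9, against 5.88 and 5.59 CPM with empty vector, and that of 5 endothelial markers 1.02 and 1.15 CPM, against 1.53 and 1.28 CPM. The summed level of 8 basal and ciliated airway markers was 15.3 and 13.0 CPM with SAMD9, against 12.2 and 10.9 CPM with empty vector. Of the tested markers, CDH1 and KRT8 rose among 8 of lung epithelium, FOXJ1 among 6 of basal and ciliated cells and COL1A1 among 2 of fibroblasts. None was called among 3 of leukocytes and 1 of endothelium. Over all genes tested, 15.3% were higher and 12.2% lower. The FOXJ1 call was lost without SAMD9 replicate 1 or 2 (log2 fold change 2.97 and 3.29) and without empty vector replicate 1 (2.52). The part of these markers in the mucin results was not tested.

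MUC5B had the highest level per kilobase in all 4 libraries. It averaged 26.8 ± 5.24 CPM per kilobase with SAMD9 and 29.1 ± 2.98 CPM per kilobase with empty vector (SD, n = 2 each). MUC13 was next, at 16.7 ± 0.937 CPM per kilobase with SAMD9 and 8.75 ± 1.21 with empty vector. The next pair changed places: with SAMD9, MUC1 (3.75 ± 0.314) lay above MUC5AC (2.75 ± 0.520), whereas with empty vector MUC5AC (3.04 ± 0.646) lay above MUC1 (1.49 ± 0.117), and in each group the ranges of the pair over its 2 libraries did not overlap. The order of this pair rests on the listed lengths. That of MUC5AC, 5930 bases, is 34.0% of its exonic length in GENCODE 29, and that of MUC1 is 100%. The remaining members reached at most 0.302 CPM per kilobase in any library. There the order was MUC20, MUC16 and MUC4 in both groups, and MUC20 and MUC16 overlapped with SAMD9. With empty vector, MUC16 and MUC4 were separated only by a narrow gap, 0.0357 in the lower MUC16 library against 0.0330 in the higher MUC4 library. Among all genes tested, the level of MUC5B per kilobase lay at the 90.7th percentile with SAMD9 and the 92.8th with empty vector, and that of MUC4 at the 0.136th and the 0.596th.

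**Figure D1:**
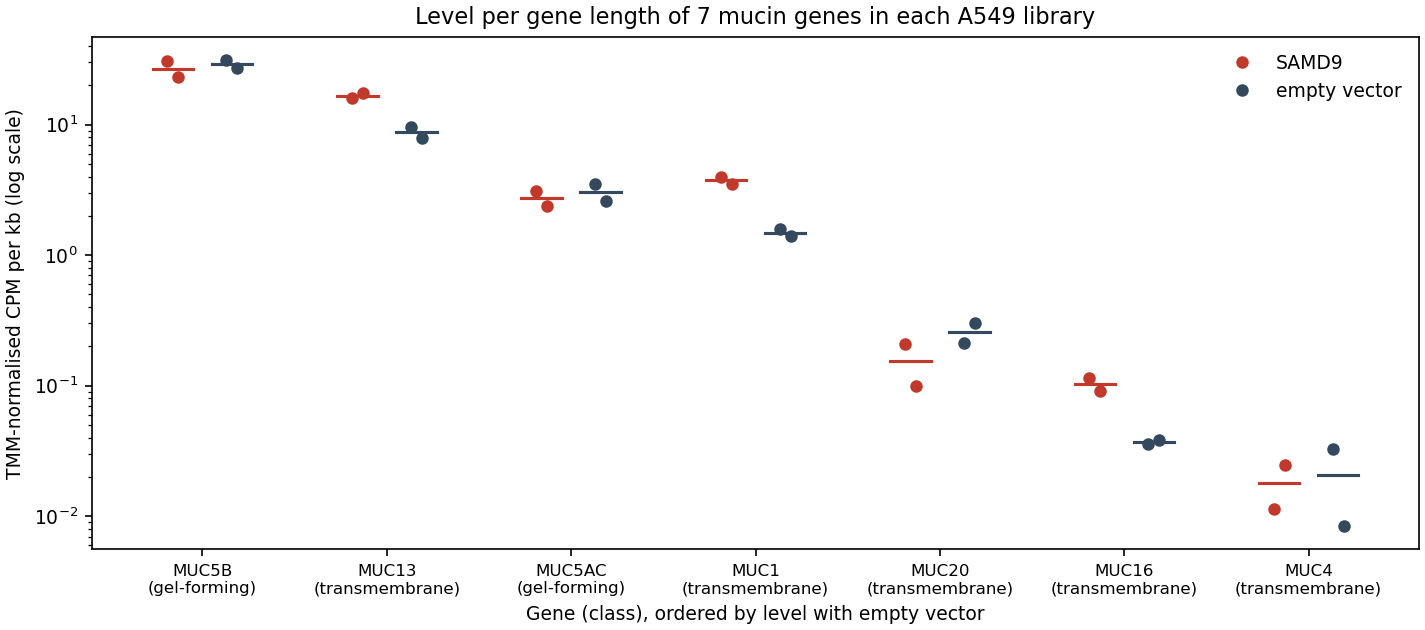
TMM-normalised CPM per kilobase (log axis) of each mucin gene in each library, with SAMD9 left of empty vector; points are libraries and bars are means of n = 2. MUC13, MUC1 and MUC16 sit higher with SAMD9 in both libraries, and MUC4 spreads widely within each group.

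MUC1 (ENSG00000185499, chromosome 1, 155185824 to 155192916, minus strand, GRCh38) encodes a membrane mucin that is cleaved into an extracellular repeat subunit and a signalling tail subunit. It had 698 and 476 counts with SAMD9, against 232 and 222 with empty vector, which is 18.7 and 16.6 CPM against 7.42 and 6.63 CPM. Both SAMD9 libraries lay above both empty vector libraries. The log2 fold change was 1.33 (SE 0.14, 95% interval 1.04 to 1.62, edgeR adjusted p = 9.8e-08), and 1142 genes tested had a larger one. Its downstream neighbour TRIM46, which ends 852 bases away on the opposite strand, did not pass, at 0.18 (SE 0.20, adjusted p = 0.557). Only 0.516% of MUC1 transcript 31-mers (stretches of 31 bases) occur in another gene of GENCODE 29. ENSG00000271748, 2250 bases upstream, had 15 and 16 counts with SAMD9, against 5 and 5 with empty vector.

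MUC13 (ENSG00000173702, chromosome 3, 124905442 to 124953819, minus strand) encodes a smaller membrane mucin with EGF-like domains, best known from the gut. It had 2087 and 1735 counts with SAMD9, against 1051 and 924 with empty vector, or 56.0 and 60.6 CPM against 33.6 and 27.6 CPM. The groups did not overlap. The log2 fold change was 0.93 (SE 0.10, 95% interval 0.73 to 1.13, adjusted p = 6.8e-08). Of its neighbours, HEG1, which encodes a mucin-like membrane protein known from endothelial junctions, lies 11890 bases away and rose by 2.56 on the log2 scale (SE 0.07, adjusted p = 3.5e-18), with 190 ± 3.77 CPM with SAMD9 and 32.3 ± 1.08 CPM with empty vector (SD, n = 2 each). The integrin gene ITGB5 on the other side, 4023 bases away, did not pass, at 0.04 (SE 0.06, adjusted p = 0.642). MUC13 shares no 31-mer with another gene, and no other listed gene overlaps it.

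MUC16 (ENSG00000181143, chromosome 19, 8848844 to 8981342, minus strand) encodes the longest membrane mucin, the source of the tumour marker CA125. It had 186 and 114 counts with SAMD9, against 49 and 56 with empty vector, spread over a gene length of 43830 bases in the files. This is 4.99 and 3.98 CPM against 1.57 and 1.67 CPM, so the groups did not overlap although the level was low. The log2 fold change was 1.47 (SE 0.27, 95% interval 0.92 to 2.02, adjusted p = 0.00017). It too shares no 31-mer with another gene. Mesothelin, encoded by MSLN and bound by MUC16 on other cells, averaged 1.19 ± 0.0572 CPM with SAMD9 and 1.60 ± 0.142 CPM with empty vector (SD, n = 2 each) and did not pass (log2 fold change -0.42, SE 0.38, adjusted p = 0.465).

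The promoter windows of MUC1 and MUC13, which rose, and of MUC4, which did not pass the test, run from 250 bases before to 50 bases after the RefSeq gene start on GRCh38.p14, 5′ to 3′. Capitals mark matches, on either strand, to the interferon-stimulated response element (searched as 2 GAAA blocks with any 2 bases between them), the STAT site (GAS) searched as TTCNNNGAA, the NF-kB consensus, TATAAA, and the GC box GGGCGG.
MUC1, chr1:155192866-155193165, minus strand: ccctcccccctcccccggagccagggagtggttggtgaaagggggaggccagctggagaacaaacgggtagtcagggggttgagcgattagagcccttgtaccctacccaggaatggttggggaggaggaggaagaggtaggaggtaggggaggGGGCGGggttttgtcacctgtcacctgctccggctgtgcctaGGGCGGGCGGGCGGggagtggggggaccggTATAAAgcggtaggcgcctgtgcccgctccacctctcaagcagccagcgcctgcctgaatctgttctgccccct
MUC13, chr3:124934702-124935001, minus strand: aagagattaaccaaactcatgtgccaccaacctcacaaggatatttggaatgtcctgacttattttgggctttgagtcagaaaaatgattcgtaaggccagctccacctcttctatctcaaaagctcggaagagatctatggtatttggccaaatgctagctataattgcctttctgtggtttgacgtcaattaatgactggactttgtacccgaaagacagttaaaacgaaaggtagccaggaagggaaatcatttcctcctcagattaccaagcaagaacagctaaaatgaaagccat
MUC4, chr3:195811880-195812179, minus strand: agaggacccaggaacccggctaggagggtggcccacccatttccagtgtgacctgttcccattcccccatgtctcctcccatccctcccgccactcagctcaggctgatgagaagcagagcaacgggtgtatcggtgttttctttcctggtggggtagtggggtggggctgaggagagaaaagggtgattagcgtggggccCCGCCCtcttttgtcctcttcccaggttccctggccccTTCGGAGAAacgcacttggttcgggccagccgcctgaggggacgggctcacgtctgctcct
The MUC1 window, whose start lies 1 base from the gene end in the files, held TATAAA, beginning 24 bases before the start, and 4 GC boxes, of which 3 overlap each other. It held no match to the interferon, STAT or NF-kB patterns. The MUC13 window held none of the 5 patterns, and its start lies 19068 bases inside the gene as the files draw it. The MUC4 window held 1 STAT pattern, beginning 11 bases before the start, and 1 GC box on the opposite strand. Over all 35116 promoter windows, 3.57% held the interferon pattern, 7.66% the STAT pattern, 11.3% the NF-kB pattern, 11.5% TATAAA and 45.0% the GC box. The 2 windows listed for MUC16, which also rose, lie 84409 and 29067 bases beyond the gene end in the files and are not printed. The window at 84409 bases held 1 GC box, on the opposite strand, and the window at 29067 bases held 1 NF-kB pattern. Neither held a match to the interferon or STAT patterns or to TATAAA. The part of any of these matches in the RNA changes was not tested. RefSeq windows of MUC5AC, MUC5B and MUC20 were not used here.

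MUC5B (ENSG00000117983, chromosome 11, 1223066 to 1262172, plus strand), the gene of the main constitutive airway mucin, had 21173 and 12313 counts with SAMD9, against 18141 and 16781 with empty vector. This is 568 and 430 CPM against 579.8 and 501 CPM. The groups overlapped, and the SAMD9 libraries differed more from each other than their mean did from that of empty vector. The log2 fold change was -0.12 (SE 0.09, 95% interval -0.30 to 0.07, adjusted p = 0.377), so ratios of SAMD9 to empty vector below 0.814 or above 1.05 lie outside the interval. This depended on scaling and on single libraries: MUC5B was called lower under total-count scaling (-0.30, adjusted p = 0.0090), without SAMD9 replicate 1 (-0.33, adjusted p = 0.0025) and without empty vector replicate 2 (-0.21, adjusted p = 0.00020). Without SAMD9 replicate 2 it was 0.077 (adjusted p = 0.640), and over all alternatives the adjusted p ranged from 0.00020 to 0.969. The antisense gene MUC5B-AS1, which shares 434 exonic bases, had 0 counts in all 4 libraries. TOLLIP, an adaptor of innate immune signalling that lies 12198 bases beyond MUC5B, fell by 0.22 on the log2 scale (SE 0.07, adjusted p = 0.028), and this call was lost with DESeq2 (adjusted p = 0.060), without either SAMD9 replicate (0.217 and 0.171) and without empty vector replicate 1 (0.060).

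MUC5AC (ENSG00000215182, chromosome 11, 1157953 to 1201138, plus strand), the gene of the inducible goblet cell mucin, lies 21927 bases from MUC5B. It had 690 and 405 counts with SAMD9, against 649 and 513 with empty vector, or 18.5 and 14.1 CPM against 20.7 and 15.3 CPM. The groups overlapped and the log2 change was -0.14 (SE 0.15, 95% interval -0.44 to 0.17, adjusted p = 0.554). The sign turned without SAMD9 replicate 2 (0.045) and without empty vector replicate 1 (0.10). The gene model in the files covers 5930 bases, 34.0% of the exonic length of this gene in GENCODE 29, so its counts cover only that share of the gene. There were 3.26 and 3.29 MUC5AC counts per 100 MUC5B counts with SAMD9, against 3.58 and 3.06 with empty vector.

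The ratio of 2 genes within a library does not depend on library scaling. MUC1 had 3.30 and 3.87 counts per 100 MUC5B counts with SAMD9, against 1.28 and 1.32 with empty vector. MUC13 had 9.86 and 14.1 against 5.79 and 5.51, and MUC16 had 0.878 and 0.926 against 0.270 and 0.334. For each of the 3 genes the SAMD9 libraries lay above both empty vector libraries, with ratios of group means of 2.75, 2.12 and 2.99. These genes were taken because they were called higher, so the ratios restate their rises and are not separate support. For 2 libraries against 2, the smallest two-sided p of an exact permutation test is 0.333, and the ratios are therefore a description. Summed within each class, for comparison between the groups and not between the classes, the 5 transmembrane genes had 80.8 and 82.2 CPM with SAMD9, against 44.2 and 37.4 CPM with empty vector. Most of the transmembrane sum was MUC13, with 56.0 and 60.6 CPM against 33.6 and 27.6 CPM, and MUC4 and MUC20 did not pass the test. The 2 gel-forming genes had 586 and 444 CPM with SAMD9, against 601 and 517 CPM with empty vector. As a share of the 7 genes per kilobase, MUC5B made up 56.6% and 49.7% with SAMD9, against 67.6% and 68.8% with empty vector, and MUC13 made up 29.6% and 37.2%, against 20.8% and 20.1%. Such a share falls when other members rise, and MUC5B itself was not called.

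**Figure D2:**
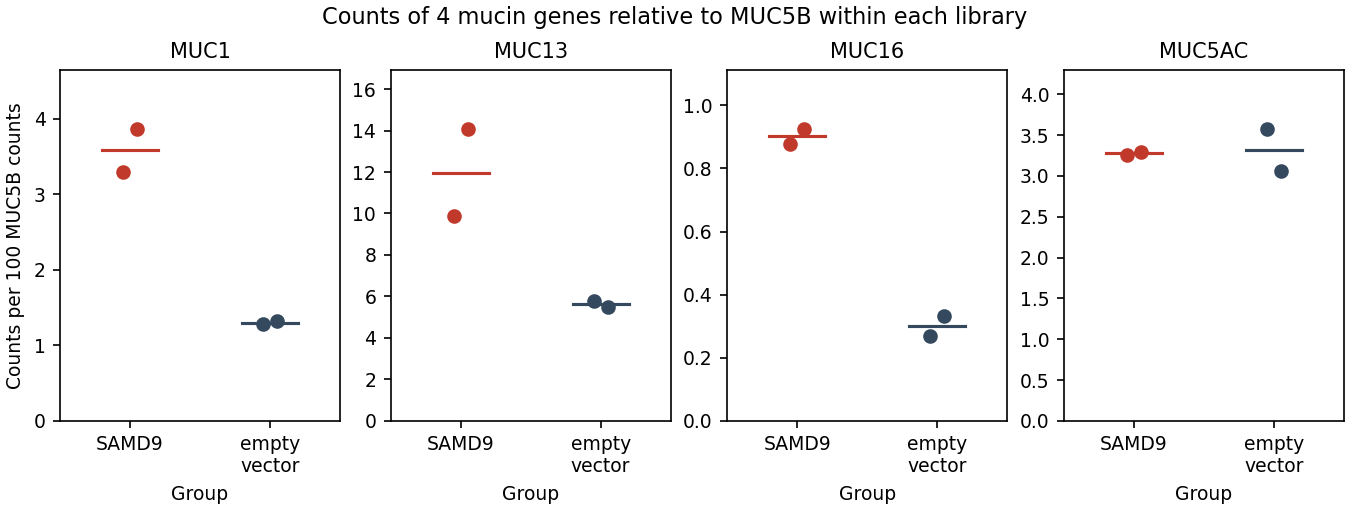
Counts of MUC1, MUC13, MUC16 and MUC5AC per 100 MUC5B counts in each library, with SAMD9 left of empty vector; points are libraries and bars are means of n = 2. For MUC1, MUC13 and MUC16 the SAMD9 points lie above the empty vector points, and for MUC5AC they lie between them.

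MUC4 and MUC20, neighbours on chromosome 3, were close to the limit of detection. MUC4 (ENSG00000145113, 195746765 to 195812277, minus strand), a ligand-like partner of the receptor ERBB2, had 9 and 15 counts with SAMD9, against 22 and 6 with empty vector. Its groups overlapped, its log2 change was -0.22 (SE 0.78, 95% interval -1.84 to 1.4, adjusted p = 0.882), and its sign turned without SAMD9 replicate 1 (0.26) and without empty vector replicate 1 (1.06). MUC20 (ENSG00000176945, 195720882 to 195741123, plus strand), a mucin best known from kidney, had 33 and 12 counts with SAMD9, against 28 and 43 with empty vector. As CPM the groups came within a narrow gap, with 0.885 and 0.419 CPM against 0.895 and 1.28 CPM, and the log2 change was -0.72 (SE 0.52, 95% interval -1.80 to 0.37, adjusted p = 0.353). With counts this low, both intervals are wide and include 0. The MUC20 value is uncertain for another reason: 60.1% of its transcript 31-mers occur in other genes, 45.5% in the overlapping MUC20-OT1 and 25.0% in the pseudogene MUC20P1. MUC20-OT1, on the same strand with 1319 shared exonic bases, had 1034 and 777 counts with SAMD9, against 904 and 948 with empty vector, and did not pass (log2 fold change -0.06, SE 0.10, adjusted p = 0.715).

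**Figure D3:**
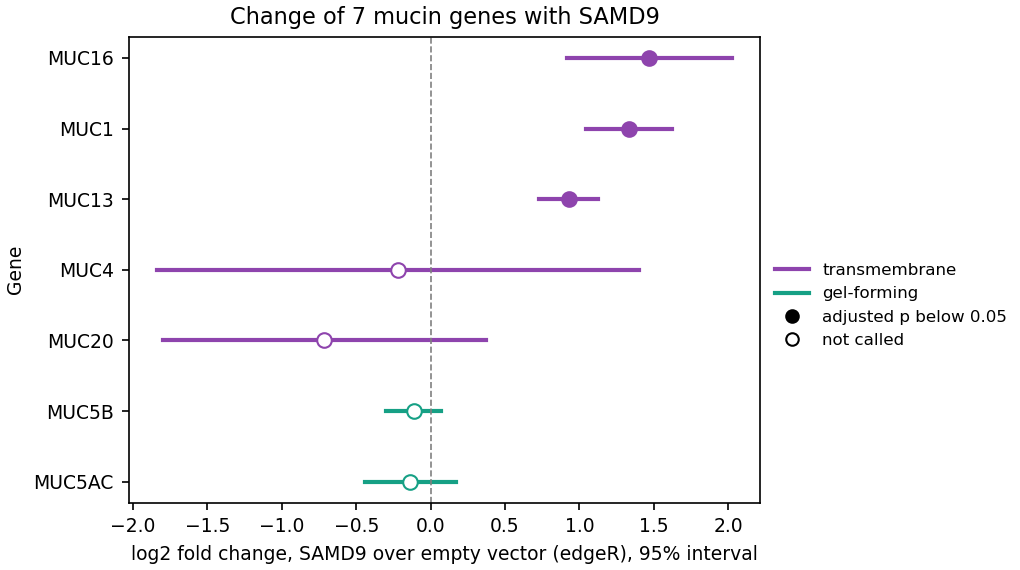
log2 fold change (SAMD9 over empty vector) of each mucin gene with its 95% interval from edgeR, n = 2 libraries a group; filled points have an adjusted p below 0.05. The intervals of MUC16, MUC1 and MUC13 lie above 0, and those of MUC4 and MUC20 are the widest.

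The genes whose pattern over the 4 libraries was most like that of each called member were taken among 13048 genes of sufficient level, by the Euclidean distance between log2 CPM values centred on each gene's own mean. For MUC1 they were CREM, TNFRSF11A and DNAJC15, at distances of 0.0898, 0.0915 and 0.121. For MUC13 they were HMOX1, SLC6A9 and SLC41A2, at 0.0124, 0.0499 and 0.0680, and for MUC16 they were CP, ZNF710 and NRSN2-AS1, at 0.154, 0.156 and 0.178. Within a distance of 0.2 there were 36 genes for MUC1, 117 for MUC13 and 9 for MUC16. With so few libraries this distance depends largely on the size of the change between the groups. The nearest genes CREM, HMOX1 and CP had log2 fold changes of 1.28, 0.94 and 1.59. Those of MUC1, MUC13 and MUC16 were 1.33, 0.93 and 1.47. Shared regulation was not tested.

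Of 14 other genes named as mucins or sialomucins, 6 were tested and 1 was called, beside 27.5% of all genes tested. CD164, a sialomucin of endosomes and the cell surface, had 198 and 216 CPM with SAMD9, against 119 and 118 CPM with empty vector, and rose 1.74-fold (log2 fold change 0.80, SE 0.06, adjusted p = 1.2e-09). MUC3A, MUC6 and MUC12 had averages between 0.776 and 2.37 CPM in both groups and did not pass. The gel-forming mucin gene MUC2, next to MUC5AC, had 14 and 12 counts with SAMD9, against 10 and 3 with empty vector (log2 fold change 0.95, SE 0.83, adjusted p = 0.448), and OVGP1 stood at -0.94 (SE 0.45, adjusted p = 0.137). Without empty vector replicate 2, OVGP1 was called lower, the 1 gene of the list so called. MUC7 and MUCL1 had 0 counts in all libraries, and the remaining 6 had too few counts to test.

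Mucin O-glycosylation begins with GALNT enzymes, which add the first sugar, and goes on with enzymes that extend or cap it. Of 27 tested genes, 3 rose and 7 fell, where 15.3% of all genes tested were higher and 12.2% lower. The list median was -0.07, against -0.01 over all genes tested. The largest rises were those of the core 2 branching enzymes: GCNT4 had 11.8 and 9.78 CPM with SAMD9, against 1.69 and 1.43 CPM with empty vector (log2 fold change 2.79, SE 0.21), and GCNT1 had 10.4 and 12.7 CPM, against 2.33 and 2.54 CPM (2.24, SE 0.19), with adjusted p of 3.4e-10 and 2.9e-09. GCNT3, the family member best known from mucin-secreting tissue, had 104 ± 0.433 CPM with SAMD9 and 109 ± 3.46 CPM with empty vector (SD, n = 2 each) and did not pass (-0.06, SE 0.07, adjusted p = 0.573). C1GALT1C1, the chaperone of the core 1 enzyme, rose by 0.54 (SE 0.12). The initiating enzyme genes GALNT10, GALNT11, GALNT1 and GALNT5 had log2 fold changes of -0.35, -0.50, -0.24 and -0.41, and the sialyltransferase gene ST3GAL1 one of -0.40. Of these calls, those of GALNT1 and GALNT5 were lost without either SAMD9 replicate (adjusted p from 0.104 to 0.158) and that of ST3GAL1 without SAMD9 replicate 2 (adjusted p = 0.055). The core 3 enzyme gene B3GNT6 had 0 and 0 counts with SAMD9, against 10 and 12 with empty vector (adjusted p = 0.0055). Set against a floor of 3 counts over the SAMD9 group, it was 7.47-fold lower. That value takes counts as independent and leaves out the spread of the empty vector counts. Counting both reads of a pair would make it smaller. Leaving out either SAMD9 replicate ended its call (adjusted p = 0.0996 and 0.0962). The secretor fucosyltransferase gene FUT2 had 22 and 15 counts, against 55 and 53 (-1.57, SE 0.45, adjusted p = 0.011; 0.055 without empty vector replicate 1). The number that fell was 13 under total-count scaling, where 5653 of all genes tested were lower in place of 2420. It was 4 with DESeq2, where FUT2 and GALNT5 were not called and B3GNT6 was given no adjusted p. The number was also smaller without SAMD9 replicate 2.

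Of 13 tested genes of goblet and secretory cells, 1 rose and 2 fell, beside 27.5% called in either direction over all genes tested. The list median was 0.31, against -0.01 over all genes tested, so the 2 that fell do not stand for the list. The 2 that fell encode transcription factors of the goblet cell programme. SPDEF had 14.4 and 11.9 CPM with SAMD9, against 26.9 and 29.4 CPM with empty vector (-1.10 on the log2 scale, SE 0.12, adjusted p = 1.9e-07), and it was called under every alternative tried, from -1.28 to -0.96. FOXA3 had 2.95 and 1.4 CPM, against 4.70 and 4.69 CPM (-1.08, SE 0.28, adjusted p = 0.0058), and without SAMD9 replicate 2 it was -0.66 (adjusted p = 0.095). The list member that rose was LCN2, an antimicrobial protein gene (0.35, SE 0.12, adjusted p = 0.035), whose call was lost in 5 of the 10 alternatives. The list had 4 higher genes when empty vector replicate 1 was left out, 2 higher and 1 lower when SAMD9 replicate 2 was left out, and 0 higher when SAMD9 replicate 1 or empty vector replicate 2 was left out, with total-count scaling or with DESeq2. AGR2, the disulfide isomerase that folds gel-forming mucins, had 220 ± 23.0 CPM with SAMD9 and 200.1 ± 21.9 CPM with empty vector (SD, n = 2 each; 0.14, SE 0.08, adjusted p = 0.195). SCGB1A1, SCGB3A1, CLCA1 and LYZ had at most 2 counts in any library, and TFF2 and TFF3 had 0.

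Of 16 genes of granule exocytosis, all tested, 2 rose and 14 were not called (list median -0.09), beside 15.3% higher over all genes tested. STX11, a syntaxin known from granule release in lymphocytes, had 6.36 and 7.06 CPM with SAMD9, against 1.21 and 2.09 CPM with empty vector (log2 fold change 2.01, SE 0.25, adjusted p = 1.6e-06). VAMP8, a vesicle SNARE of mucin granules, rose by 0.56 (SE 0.17, adjusted p = 0.015), but its call was lost with DESeq2, with total-count scaling and when SAMD9 replicate 2 was left out, each of which left 1 gene higher. Under total-count scaling 9 of the genes were lower. That setting called 5653 genes lower over all genes tested, in place of 2420, and moved the median of all genes by -0.19 (log2). RAB27A, a GTPase that docks granules, stood at 0.35 (SE 0.14, adjusted p = 0.070).

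Among 24 tested genes of factors and ligands known to regulate mucin genes, 10 rose and 3 fell (list median 0.17), where the shares over all genes tested were 15.3% higher and 12.2% lower. Among those that rose were KLF4 at 2.56 on the log2 scale (SE 0.09; 221 ± 14.4 CPM with SAMD9 and 37.5 ± 6.48 CPM with empty vector, SD, n = 2 each) and RELA at 1.13 (SE 0.06). Also higher were STAT3 at 0.93 (SE 0.06), STAT6, which carries interleukin-13 signals to goblet cells, at 0.89 (SE 0.07), GATA6 at 1.32 (SE 0.12) and NFKB1 at 0.79 (SE 0.08). The EGF receptor ligand gene TGFA, the Notch target HES1 and FOXA2, a repressor of goblet cell differentiation in mice, were lower at -0.58 (SE 0.08), -0.78 (SE 0.13) and -0.36 (SE 0.10). The FOXA2 call was lost without SAMD9 replicate 2 (log2 fold change -0.27). Under total-count scaling 5 were lower, beside 5653 of all genes tested. NKX2-1 had too few counts to test.

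Of 17 genes for shedding and partners of membrane mucins, 8 rose and 1, SRC, fell (list median 0.14), beside 15.3% higher and 12.2% lower over all genes tested. ICAM1, which binds MUC1 on other cells, had 181 and 158 counts with SAMD9, against 18 and 10 with empty vector (log2 fold change 3.57, SE 0.34, adjusted p = 1.9e-08). ADAM17, a sheddase of MUC1, rose by 0.54 (SE 0.08, adjusted p = 1.2e-05). Smaller rises were those of LGALS3, EGFR, MET, CTNNB1 and CANX, at 0.34, 0.24, 0.21, 0.19 and 0.15. All of these smaller rises lost their call under total-count scaling. EGFR is also in the list of mucin gene regulators. ADAM10 and ADAM9 had 0.06 and -0.07 and did not pass. The number that rose was 3 under total-count scaling, where 3 fell, beside 1974 higher and 5653 lower of all genes tested. It was also smaller than 8 without either SAMD9 replicate. SRC lost its call without SAMD9 replicate 2 (log2 fold change -0.20).

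**Figure D4:**
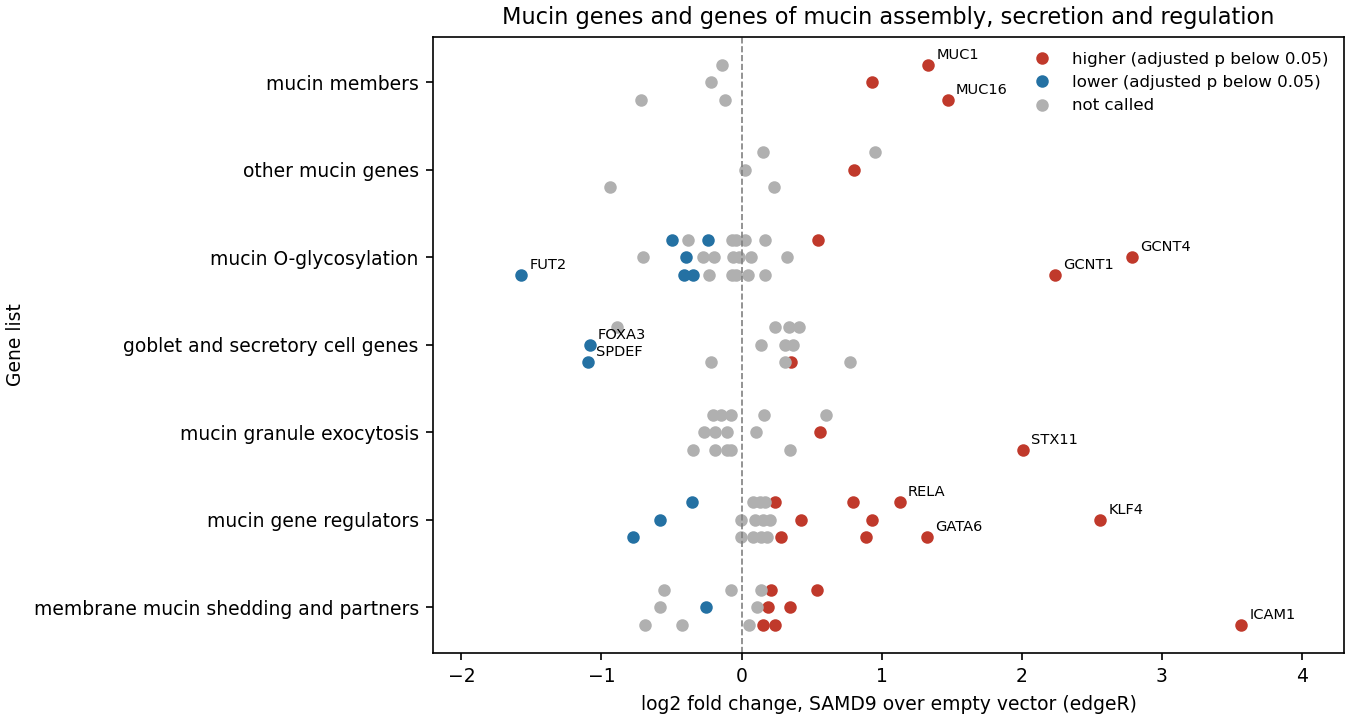
log2 fold change (SAMD9 over empty vector) of tested genes of the mucin list and of 6 lists related to mucins; red is called higher, blue called lower, grey not called, and called genes with a change of at least 1 are named. B3GNT6, with 0 counts in both SAMD9 libraries, is left out. MUC1, MUC13 and MUC16 lie to the right, as do GCNT4, GCNT1, STX11, KLF4 and ICAM1, and SPDEF, FOXA3 and FUT2 lie to the left.

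The rises of MUC1, MUC13 and MUC16 were called under all 10 alternatives tried. Their log2 fold changes ranged from 1.15 to 1.42 for MUC1, from 0.74 to 1.08 for MUC13 and from 1.28 to 1.63 for MUC16, and the highest adjusted p was 0.0019, for MUC16 without SAMD9 replicate 1. MUC4 and MUC20 stayed uncalled wherever they were tested, and the filter at 50 counts left them out.

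**Figure D5:**
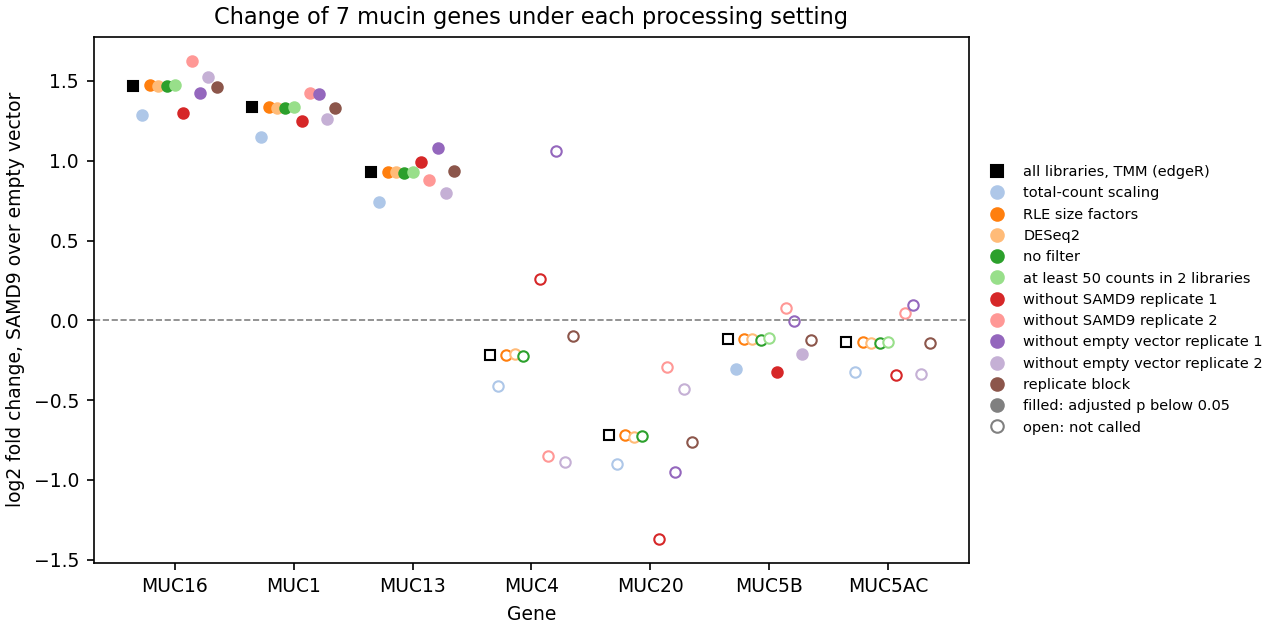
log2 fold change (SAMD9 over empty vector) of each mucin gene under each processing setting; filled symbols have an adjusted p below 0.05 and the black square is the value reported. Symbols of MUC16, MUC1 and MUC13 are filled throughout and lie between 0.74 and 1.63, and those of MUC5B are filled under 3 settings, all below 0.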

How the data were processed

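For every library the authors deposited a table of raw counts by gene. The deposited CPM equalled the count over the library total and the deposited RPKM equalled CPM per kilobase of listed length, so only the deposited counts were tested. The submitters' processing notes name bcl2fastq, STAR 2.5.1a, featureCounts 1.4.6-p5 (Subread) and GRCh38. Counting options and strand setting: not given in the sources used here, so genes overlapping on opposite strands are treated as inseparable. Small counts were mostly even (72.9% of those from 1 to 20, and 49.7% of those over 1000), a pattern that counting both reads of a pair would give.

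The test was the quasi-likelihood F-test of edgeR 4.0.16 (R 4.3.3) between the groups, with no covariate. filterByExpr (minimum count 10, total 15) kept 19814 genes, and TMM factors lay between 0.932 and 1.07. The SE was obtained from the log2 fold change and F, and 95% intervals use the fitted residual degrees of freedom. Alternatives were total-count scaling, RLE factors, DESeq2 1.42.0, no filter, at least 50 counts in 2 libraries, each library left out, and a replicate block. A group left with 1 library is assumed to vary like the other group. Replicates differed by more than sampling of independent counts would give (chi-square per degree of freedom 5.00 for SAMD9 and 9.35 for empty vector). Counting both reads of a pair would itself raise these values. Named genes are the 7 members, SAMD9, genes next to or overlapping a member, those most like a called member, and the 3 tested genes with the lowest p of each list; others were named after their values were seen, and 2 genes of these lists are not reported here. The members and lists were chosen with earlier results of these data known. Promoters are from RefSeq (GRCh38.p14), with entries for 4 members, and a table of gene names matched 54836 IDs.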

Additional observations from a re-analysis of the deposited data

How the results depend on the processing

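The rises of MUC1, MUC13 and MUC16 kept their direction and call under all 10 alternatives, so the count of members called higher was 3 throughout. The count called lower was 1 in place of 0 under total-count scaling, and with 1 library left out it ranged from 0 to 1; in each case the gene was MUC5B. With total-count scaling MUC5B was -0.30, and with 1 library left out it ranged from -0.33 to 0.077. MUC5AC ranged from -0.35 to 0.10 and MUC4 from -0.89 to 1.06 with 1 library left out. Total-count scaling moved the median of all genes by -0.19 (log2), gave 1974 higher and 5653 lower genes in place of 3038 and 2420, so that 25.9% of calls were higher against 55.7%, and left 32 genes of the 6 mucin-related lists lower in place of 13. With 1 library left out, between 2291 and 3123 genes were higher and between 1466 and 2279 lower, and between 6 and 13 list genes were lower; the lowest values were without SAMD9 replicate 2. In the exocytosis list 9 genes were lower under total-count scaling. With the replicate number as a block, 2914 genes were higher and 2330 lower, with MUC1 at 1.33, MUC13 at 0.93 and MUC16 at 1.46; same-numbered libraries did not deviate together (correlation 0.00081 over 13469 genes), so the numbers were not taken to pair samples. The cause of these shifts was not tested. The counts of MUC4 and MUC20 limit what could be detected for them.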
